A study of Gallus gallus with 6 samples.

Results

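The genes described here serve protein folding and the endoplasmic reticulum (ER) in rooster liver, and 24 of the 1480 mRNAs in the deposited table belong to them. An mRNA was included when its annotation carried the KEGG pathway of protein processing in the ER, or when its symbol began with or equalled that of a heat shock protein, DNAJ protein, CCT chaperonin subunit, protein disulfide isomerase, SEC or SSR protein, FKBP or cyclophilin. The pathway term alone brought in 8 of the 24, the symbol alone 13, and both 3. The rule reached few genes through the pathway, since 327 of the 1480 mRNAs have any KEGG term and HSP90AA1 has none.

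RNA depleted of ribosomal RNA was sequenced from livers of Arbor Acres breeder roosters in 6 strand-specific libraries. The 3 immature libraries were made from chicks aged 1 day, with the RNA of 4 livers pooled in each, and the 3 mature libraries from single roosters aged 40 weeks. All birds were roosters of this breed that had been fasted before they were killed. The groups differ in pooling as well as in age. By the paper's read counts, each mature library also had more mapped reads and a higher mapped share than any immature one. These differences cannot be told apart. The deposited tables give each transcript a single FPKM for each group, a fragment count scaled to transcript length and library size, with no value per library and no raw counts. The number of fragments behind a value is therefore unknown, and no error or test can be given for any difference. The values below are the authors' values for each group.

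Proteins that a liver cell secretes or places in its membranes enter the ER through a translocation channel, receive N-linked sugar chains from the oligosaccharyltransferase, and fold with the help of ER chaperones and prolyl isomerases. Proteins that fail to fold are sent back to the cytosol, ubiquitinated and degraded, and an excess of them sets off the unfolded protein response, which acts in part through the kinase and nuclease IRE1 and the transcription factor XBP1. In the cytosol, HSP70 with its DNAJ and BAG partners, HSP90 and the CCT chaperonin fold other clients, and related chaperones serve mitochondria. The liver is known for a high output of plasma proteins and hence for a large ER.

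Direction was shared within some role groups of these genes and not within others. The role lists were chosen with earlier results of these data known and hold few listed genes each, so this is a description only. All 6 that act in ER translocation, N-glycosylation or ER folding were listed lower in mature livers, and so were both chaperonin subunits and the mitochondrial chaperone HSPA9. The heat shock gene hsp70, the cytosolic HSP90AA1, XBP1, the IRE1 gene ERN2 and the ER ubiquitin-conjugating enzyme UBE2J1 were listed higher. Genes of ER-associated degradation and J-domain proteins were listed in both directions. In all, 11 of the 24 (45.8%) were higher in mature livers and 13 lower, while 54.9% of all mRNAs in the table were higher. Differences are mature minus immature on log2(FPKM + 1), and the added 1 shrinks the difference of genes with low levels. Past 1 on this scale, 7 of the 24 (29.2%) were higher and 10 (41.7%) lower, against 35.9% and 29.8% of all 1480 mRNAs. The median difference was -0.72 over the 24 genes and 0.64 over all mRNAs, and the median absolute difference 1.29 and 1.16. Few differences in this table of selected transcripts are small, since 52.7% of all mRNAs were higher and 44.0% lower past 0.5. A median therefore falls on the side with more genes, and its sign restates the share that was higher. The distance between the medians of -0.72 and 0.64 is thus not a measure of a shift. Of the 11 genes with the KEGG term, 6 (54.5%) were higher, near the share of the table, and their median was accordingly 0.65. Of the 16 genes with a matching symbol, 3 of which also had the KEGG term, 6 (37.5%) were higher. With so few genes, these shares and the 45.8% are not shown to differ from each other or from the table. Relative to the median of 0.64, 4 of the 24 genes were higher and 13 lower past 1, against 15.0% and 45.1% of all mRNAs, and the genes no longer higher past 1 were XBP1, HSP90AA1 and ERN2 (0.97, 0.97 and 0.52).

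The table holds only transcripts that the authors had selected as differing between the ages, and every FPKM ratio with both values above 0 was at least 2-fold, with a smallest absolute log2 ratio of 1.00. That a gene differs is thus given by its presence, and what the values add is the direction, the size and the level. For the same reason rows with high FPKM pass 1 largely through the selection, and the added 1 holds back mainly rows with low levels. A gene without a row has no value here and is not taken as unchanged. Each row is 1 transcript model, and other transcripts of the same gene may have none.

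**Figure D1:**
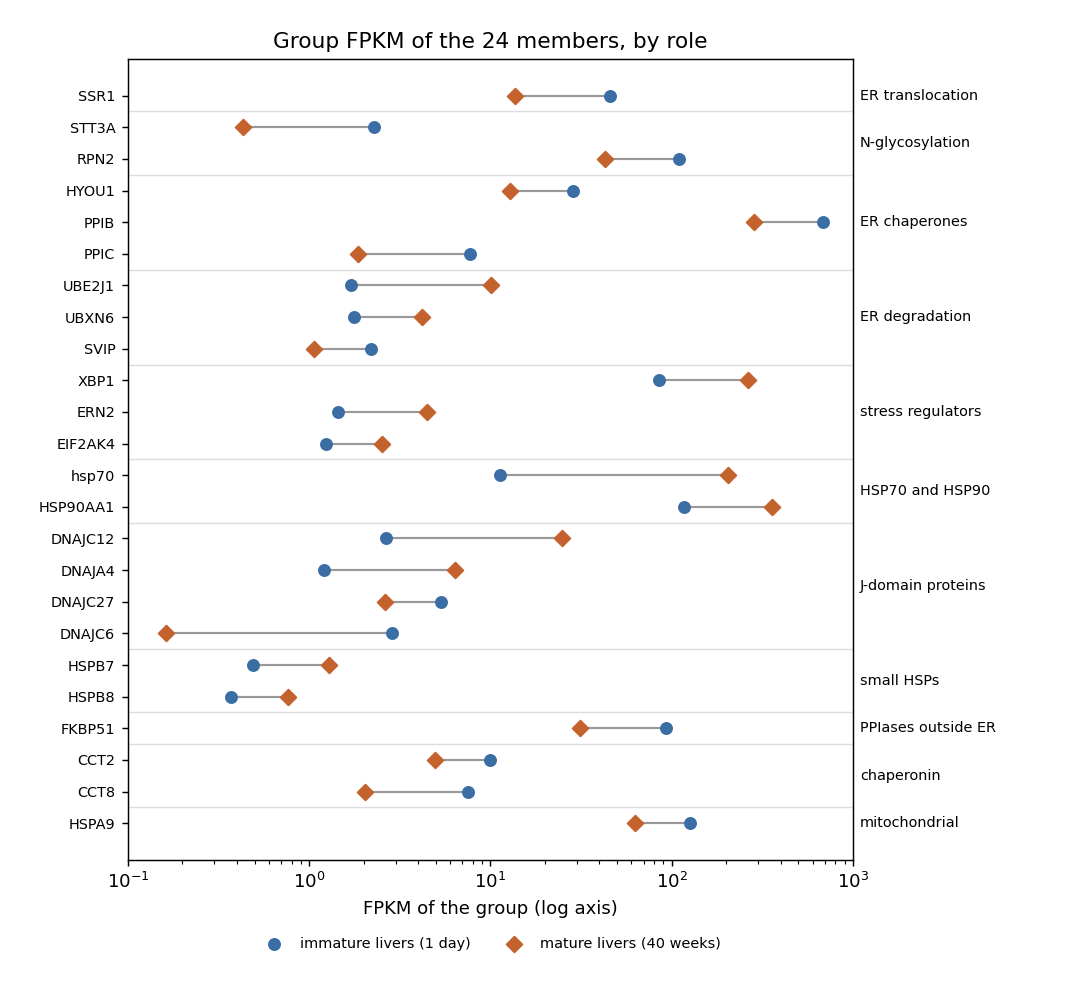
FPKM of the immature group (circles) and of the mature group (diamonds) on a log axis for the 24 genes, grouped by role, with 1 value per group and no error. PPIB at 687 and 285 FPKM is the most abundant of the ER genes and lies lower in mature livers, while hsp70 moves from 11.3 to 205 FPKM.

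At the entry to the ER, SSR1 (ENSGALG00000012798; chromosome 2, 64710404 to 64724433) was listed at 45.9 FPKM in the immature and at 13.7 FPKM in the mature group, a difference of -1.67. SSR1 is the alpha subunit of the translocon-associated protein complex, which sits beside the channel and helps some precursors to enter. It was the single listed gene among 30 on the list of translocation and signal peptide removal, so the channel itself has no value here. Coordinates are as deposited, and the sources used here do not name their genome build.

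RPN2 and STT3A are subunits of the oligosaccharyltransferase, which moves the sugar chain onto the growing protein. RPN2 (ENSGALG00000003815; chromosome 20, 5364571 to 5385541) was listed at 109 FPKM in the immature and at 43.1 FPKM in the mature group (log2 difference -1.32). STT3A, a catalytic subunit (ENSGALG00000001005; chromosome 24, 373675 to 377118), went from 2.27 to 0.431 FPKM (-1.19). The listed RPN2 transcript stood at 48.2 times the FPKM of the listed STT3A transcript in the immature group, and at 100.2 times in the mature group. Each value is that of 1 transcript model, and STT3B, on the same list, had no row. The ratio is thus no measure of the balance of subunits. The STT3A difference depends on the pseudocount because of its low level, and was -2.16 with a pseudocount of 0.1.

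PPIB, cyclophilin B, is a prolyl isomerase of the ER lumen that in mammals takes part in collagen folding. It was listed at 687 FPKM in the immature and at 285 FPKM in the mature group (log2 difference -1.27, ENSGALG00000002210; chromosome 10, 806483 to 807487). This placed it 21st of all 1480 mRNAs by level in immature and 44th in mature livers. PPIC, cyclophilin C, was far less abundant and went from 7.75 to 1.86 FPKM (-1.61, chromosome Z, 81178146 to 81184188). HYOU1, a large relative of HSP70 that serves as nucleotide exchange factor for the main ER chaperone, went from 28.4 to 12.8 FPKM (-1.09, chromosome 24, 5669088 to 5683545). The collagen gene COL1A2 was listed at 52.5 FPKM in the immature and at 8.82 FPKM in the mature group, and its part in the difference of the cyclophilins was not tested.

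Taken as a set, these 6 ER genes summed to 880 FPKM in the immature and to 357 FPKM in the mature group, a ratio of 0.405, and their differences lay between -1.67 and -1.09. PPIB made up most of that sum in both groups. Other genes on the 3 lists of ER translocation, glycosylation and folding had rows as well. In total 9 of 94 genes were listed, 8 lower and 1 higher, all past 1. Of all 1480 mRNAs, 29.8% were lower and 35.9% higher past 1, and 45.1% and 54.7% with a pseudocount of 0.01. MANF, a secreted and ER-resident factor induced by ER stress in mammals, went from 149.7 to 57.0 FPKM (-1.38), and SDF2, an ER lumen protein, from 15.5 to 6.07 FPKM (-1.22). The exception was UGGT2, which resembles the enzyme that puts glucose back on misfolded glycoproteins and went from 1.68 to 5.84 FPKM (1.35).

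Genes of ER-associated degradation did not share a direction. UBE2J1, the ubiquitin-conjugating enzyme of the ER membrane, went from 1.71 FPKM in the immature to 10.1 FPKM in the mature group (log2 difference 2.03, ENSGALG00000015775). Its row gives the locus of a merged assembly unit that also holds RRAGD (chromosome 3, 75061413 to 75115153), and RRAGD was listed at 1.69 and 4.01 FPKM. UBXN6, a cofactor of the segregase VCP that pulls proteins out of the ER membrane, went from 1.77 to 4.19 FPKM (0.91, chromosome 28, 2467901 to 2473068). SVIP, a small VCP-interacting protein that inhibits ER-associated degradation in mammals, went the other way, from 2.21 to 1.06 FPKM (-0.64, chromosome 5, 3058672 to 3063034). EDEM3, a mannosidase that marks glycoproteins for degradation, was listed at 3.18 and 0.885 FPKM (-1.15) and was reached by the list but not by the rule. In all, 4 of 52 genes on this list had a row, 2 higher and 2 lower.

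Of 38 genes on the list of stress response regulators 3 had a row, so most of the list has no value here. These 3 were all higher in mature livers, against 54.9% of all mRNAs. By size, 2 were past 1, and none was after centring on the median of the table. XBP1 (ENSGALG00000005796; chromosome 15, 7713030 to 7716156), the transcription factor that expands the secretory machinery in mammals, was listed at 85.4 FPKM in the immature and at 264 FPKM in the mature group (log2 difference 1.62). The value does not separate its spliced from its unspliced mRNA. ERN2, which encodes the beta form of the IRE1 enzyme that splices XBP1 mRNA, went from 1.44 to 4.47 FPKM (1.16, chromosome 14, 6889932 to 6898744). The ratio of XBP1 to ERN2 FPKM was 59.3 in immature and 59.1 in mature livers, since each was about 3.1-fold higher. A link between the 2 genes was not tested. ERN2 was low in both groups, and ERN1, on the same list, had no row. EIF2AK4, the GCN2 kinase that senses amino acid shortage, was listed at 1.25 and 2.53 FPKM (0.65, chromosome 5, 28748077 to 28787177). Its value centred on the median of the table was 0.01, but that median is no reference for an unchanged gene.

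The largest difference of the 24 genes was that of hsp70 (ENSGALG00000011715; chromosome 5, 52784176 to 52786081), a chaperone named for its induction by heat. It was listed at 11.3 FPKM in the immature and at 205 FPKM in the mature group, an 18.1-fold ratio and a log2 difference of 4.06, which ranked 15th among the 812 mRNAs that were higher. RefSeq gives HSP70 as a synonym of HSPA2, and copies of this family are similar enough that reads may have been divided between them. HSP90AA1, the stress-inducible cytosolic HSP90, was listed at 117 and 358 FPKM (1.61, chromosome 5, 49387125 to 49393962) and was the most abundant of the 24 genes in mature livers. In immature livers HSP90AA1 stood at 10.3 times the FPKM of hsp70, and in mature livers at 1.75 times.

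Of all mRNAs, 35.9% were higher past 1, and 54.7% with a pseudocount of 0.01. Of 28 genes on the cytosolic HSP70 and HSP90 list 4 had a row, all higher and past 1. Besides hsp70 and HSP90AA1 these were BAG3, which went from 1.64 to 6.47 FPKM (log2 difference 1.502), and BAG5, which went from 4.78 to 11.0 FPKM (1.05). Both encode exchange factors of HSP70, and BAG3 joins HSP70 to small heat shock proteins. FKBP51, a co-chaperone of HSP90 placed on another list, was lower (-1.55), so the shared direction depends on how the lists were divided. The listed small heat shock proteins were HSPB8, a partner of BAG3, at 0.371 and 0.768 FPKM (0.37, chromosome 15, 9720473 to 9724236), and HSPB7, at 0.491 and 1.29 FPKM (0.62, chromosome 21, 4309856 to 4311399). These 2 were the weakest rows of the set by level in immature livers. Centred on the median of the table, their values were -0.28 and -0.03, although their FPKM was 2.07-fold and 2.62-fold higher in mature livers. That median comes from selected transcripts and is no reference for an unchanged gene.

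**Figure D2:**
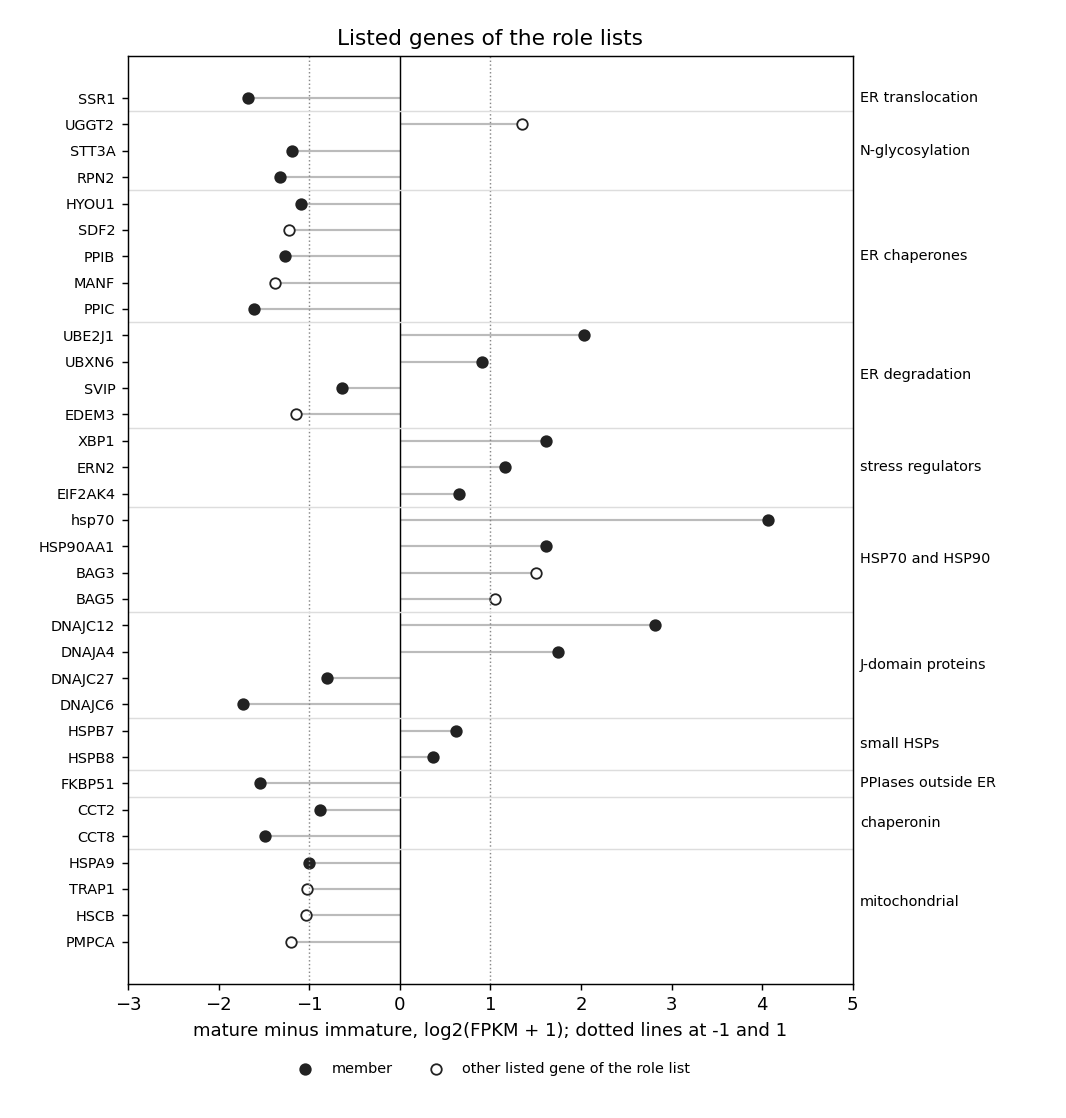
Difference of mature minus immature livers on log2(FPKM + 1) for every gene of 11 role lists that has a row in the deposited table, with filled points for genes that met the rule and open points for other genes of the lists. The genes on the ER chaperone, chaperonin and mitochondrial lists lie left of 0. Those on the HSP70 and HSP90 list lie right of 0, from 1.05 for BAG5 to 4.06 for hsp70. FKBP51, a co-chaperone of HSP90 on another list, lies left of 0.

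FKBP51, known as FKBP5 in mammals, is a prolyl isomerase and co-chaperone through which HSP90 holds steroid hormone receptors. It was listed at 93.1 FPKM in the immature and at 31.2 FPKM in the mature group (log2 difference -1.55, ENSGALG00000000947; chromosome 26, 61867 to 81478), the direction opposite to that of HSP90AA1. Its FPKM was 0.797 times that of HSP90AA1 in immature and 0.0870 times in mature livers. No other prolyl isomerase outside the ER had a row among the 24 genes on that list.

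J-domain proteins deliver clients to HSP70 and stimulate it, and the 4 with a row on the list of those outside the ER, which does not hold HSCB, went in both directions. DNAJC12, which in humans binds the aromatic amino acid hydroxylases, went from 2.66 FPKM in the immature to 24.9 FPKM in the mature group (log2 difference 2.82, ENSGALG00000002769; chromosome 6, 6097051 to 6109848), a 9.36-fold ratio. DNAJA4, a partner of cytosolic HSP70, went from 1.21 to 6.40 FPKM (1.75, chromosome 10, 3229241 to 3276760). DNAJC6, auxilin, recruits HSP70 to strip the coat from clathrin vesicles, and went from 2.86 to 0.161 FPKM (-1.73, chromosome 8, 27179423 to 27220093).

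DNAJC6 had the most negative difference of the 24 genes. It reached -3.50 with a pseudocount of 0.1 and -4.07 with 0.01, because the mature value of 0.161 FPKM is near 0. The ratio of the FPKM values was 17.7-fold, against 18.1-fold for hsp70 in the opposite direction. The DNAJC6 ratio rests on far lower levels and is less certain. DNAJC27, a small GTPase with a J domain, was listed at 5.32 and 2.62 FPKM (-0.80, chromosome 3, 105062301 to 105072565). The 2 J-domain genes that were higher had larger ratios than DNAJC27, and none of the 4 was above 25 FPKM in either group.

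The cytosolic chaperonin, a ring that folds actin and tubulin, was represented by 2 of its subunits. CCT8 went from 7.55 FPKM in the immature to 2.04 FPKM in the mature group (log2 difference -1.49; chromosome 1, 103337963 to 103349120), and CCT2 from 9.97 to 4.95 FPKM (-0.88, chromosome 1, 35461466 to 35477625). The ratio of CCT2 to CCT8 was 1.32 in immature and 2.43 in mature livers. Of 15 genes on the chaperonin and prefoldin list no other had a row.

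HSPA9, the HSP70 of the mitochondrial matrix and part of the protein import motor, was listed at 126 FPKM in the immature and at 62.6 FPKM in the mature group (log2 difference -1.00, ENSGALG00000002363; chromosome 13, 2134784 to 2156387). It lay just past the threshold of 1, and CCT2 at -0.88 was the nearest lower gene inside it. Of all mRNAs, 29.8% were lower past 1, and 45.1% with a pseudocount of 0.01. Of 18 genes on the list of mitochondrial chaperones and proteases 4 had a row, all lower past 1. TRAP1, the mitochondrial HSP90, went from 53.2 to 25.6 FPKM (-1.03), HSCB, a J-domain co-chaperone of iron-sulfur cluster assembly, from 21.6 to 10.02 FPKM (-1.04), and PMPCA, a subunit of the peptidase that removes import signals, from 45.05 to 19.0 FPKM (-1.20). The ratio of HSPA9 to hsp70 FPKM was 11.2 in immature and 0.306 in mature livers.

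The order of levels changed between the ages. In immature livers PPIB, HSPA9, HSP90AA1, RPN2 and FKBP51 had the highest FPKM of the 24 genes, and in mature livers HSP90AA1, PPIB, XBP1, hsp70 and HSPA9. The 13 lower genes summed to 1128 FPKM in the immature and to 461 FPKM in the mature group, and the 11 higher genes to 224 and 882 FPKM. The direction of these sums was given by the split by sign. All 24 genes summed to 1352 and 1343 FPKM, a ratio of 0.993. Without PPIB their sum was 665 FPKM in the immature and 1058 FPKM in the mature group. Over all mRNAs the ratio of sums was 2.18, with the small non-coding RNA SNORA73 alone at 50012.5 and 150944 FPKM. By position, the largest number of these genes on a chromosome was 4, on chromosome 5, and the 24 lay on 16 chromosomes.

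**Figure D3:**
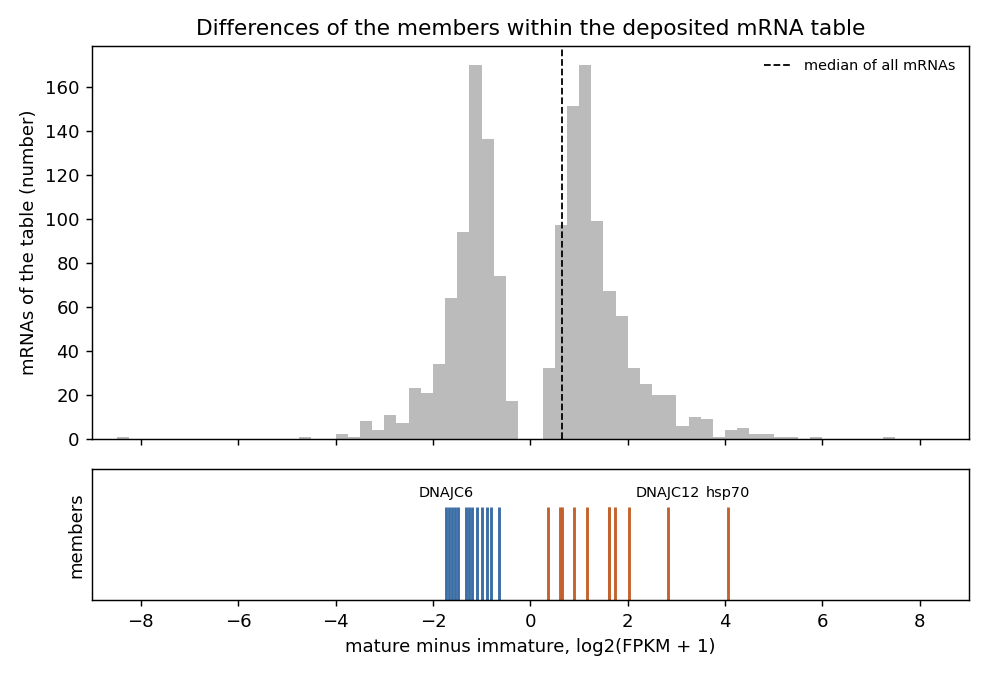
Number of mRNAs of the deposited table in equal bins of the difference of mature minus immature livers on log2(FPKM + 1), with the median of 0.64 dashed, above the 24 genes drawn as ticks. The gap around 0 comes from the authors' selection, the 13 lower genes lie between -1.73 and -0.64, and DNAJC12 and hsp70 reach 2.82 and 4.06.

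Several of these genes lie beside other mRNAs of the table. Within 100 kb, 12 of the 24 (50.0%) had a listed neighbour, against 53.9% of all mRNAs, counting genes of a shared locus such as RRAGD. ERN2 lay 498 bases from PLK1, a kinase of cell division, which went from 21.2 FPKM in the immature to 0.869 FPKM in the mature group while ERN2 was higher. XBP1 lay 9717 bases from HSCB, which was lower. DNAJA4 lay 301 bases from IDH3A, an enzyme of the citrate cycle, which was higher as well, from 1.24 to 2.85 FPKM.

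A listed lncRNA lay within 100 kb of 2 of the 24 genes (8.33%), against 13.8% of all mRNAs. The intergenic lncRNA TCONS_00036740 (chromosome 26, 83275 to 84722) lay 1797 bases from FKBP51 and was listed at 0.483 FPKM in the immature and at 1.00 FPKM in the mature group. TCONS_00068979 (chromosome Z, 81098762 to 81101019), 77127 bases from PPIC, was listed at 0.145 and 0.849 FPKM. Both were higher where the gene beside them was lower, but both were at low FPKM. Opposite directions were also common among mRNA neighbours, of which 7 of 17 went the same way as their gene. A relation between the lncRNAs and these genes was not tested.

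Markers of other cells moved with age too. All 21 rows listed for 53 leukocyte markers (Ii has 2 rows) were higher in mature livers, against 54.9% of all mRNAs in this table of selected transcripts. Their summed FPKM was 177 in immature and 1763 in mature livers. Most of both sums came from the macrophage and Kupffer cell list, at 166 and 1606 FPKM, with Ii, CTSS and C1QA the largest. The T and natural killer cell list summed to 3.16 and 61.6 FPKM. B and plasma cell markers summed to 0.470 and 10.2 FPKM, and heterophil markers to 7.70 and 85.5 FPKM. Plasma cells have a large ER, and IGJ, which encodes the chain that joins their immunoglobulins, went from 0.0143 to 9.12 FPKM. Both listed rows of 20 erythroid markers were lower, as were 668 of all 1480 mRNAs. TFRC went from 35.7 FPKM in the immature to 7.33 FPKM in the mature group, and HBE1 from 3.99 to 0.0909 FPKM. Most of their sum, at 39.7 and 7.42 FPKM, thus came from TFRC. Among 16 hepatocyte markers 3 had a row, with AHSG at 2625 and 269 FPKM, TAT at 385 and 941 FPKM, and HNF4alpha at 21.8 and 5.24 FPKM. No listed marker of these cell types was at 0 in either group. The part of cell composition in the differences of the 24 genes was not tested, and in whole livers fewer cells of a type cannot be told apart from less of the mRNA per cell.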

How the data were processed

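Livers of 1-day-old and 40-week-old roosters were sequenced in 6 libraries. The authors deposited FPKM, 1 value per group, for 1480 mRNAs and 622 lncRNAs that they had selected, and a few rows of the mRNA table are small non-coding RNAs. The paper's results section reports other totals for both, with most differing mRNAs lower in mature livers. Its discussion gives another count of differing lncRNAs, which matches the 622 deposited. Of the mRNAs deposited, 54.9% were higher, and the shares of all mRNAs given here hold for the deposited selection only. The submitters' processing notes name FastQC, Bowtie2 2.0.6, TopHat, Cufflinks, Cuffdiff and DESeq, while the paper's methods describe TopHat, StringTie and Ballgown on Gallus gallus 5. The sources used here do not say which of these made the tables. The tables also hold the authors' fold changes, p-values and directions, which were not used. No library values are in these tables, so the planned fit on libraries was replaced by differences of group values on log2(FPKM + 1). These were computed with Python 3.11.15, pandas 2.3.3 and numpy 2.4.6. A check on planted differences without noise covered only the arithmetic of this step. A difference past 1 was counted in each direction.

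The 24 genes were found by KEGG term or symbol, and all are named. The 13 role lists and 7 marker lists were matched by symbol or by RefSeq synonym, 1 gene of the role lists through a synonym. All 24 symbols or synonyms are in the RefSeq gene table of GRCg7b, which was used for names only. The genes and lists were chosen with earlier results of these data known. The lists of ER disulfide formation (25 genes) and of the COPII coat (26 genes) had no row, and 4 of the 15 endothelial and stellate cell markers did, 2 of them higher. Sequences were not analysed here. Alternatives were pseudocounts of 0.1 and 0.01, centring, a minimum mean FPKM of 1, other thresholds and each part of the selection rule alone.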

Additional observations from a re-analysis of the deposited data

How the results depend on the processing

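A pseudocount cannot turn the direction of a gene. Centring on the median of all mRNAs made the values of HSPB7 and HSPB8 negative, both of which lay within 1 of 0. That median is no reference for an unchanged gene, so this does not bear on their direction. The count higher past 1, which was 7, became 11 (45.8%) with a pseudocount of 0.01, where 54.7% of all mRNAs were, and 4 with centring. It was 4 among the 11 genes with the KEGG term (36.4%) and 4 among the 16 with a matching symbol (25.0%), against 35.9% of all mRNAs, and 3 at a threshold of 2, against 9.46% of all mRNAs. The count lower past 1, which was 10, became 13 of 24 with a pseudocount of 0.01 and also with centring. In both settings 45.1% of all mRNAs were lower past 1. Of the 16 genes with a matching symbol 8 (50.0%) were lower past 1, and of the 11 with the KEGG term 4 (36.4%). The share of all mRNAs was 29.8%. At a threshold of 2 the count was 0, against 5.34%. By sign, 6 of the 11 genes with the KEGG term (54.5%) and 6 of the 16 with a matching symbol (37.5%) were higher, against 54.9% of all mRNAs. The median difference of -0.72 became -1.37 with centring and 0.65 over those with the KEGG term. Without centring its sign only restates these shares by sign, since few differences in the table are small. With a pseudocount of 0.1, 5 genes moved by 0.5 or more and 19 by less, and with 0.01 the numbers were 6 and 18. Centring shifts every value by 0.64, and the median it uses comes from a table of selected transcripts. Adjusting for libraries, leaving out a library and counting intervals could not be done with group values. No paired analysis was possible because the columns carry no replicate numbers, and the birds of the groups are different animals.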

Other observations

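Genes around the same functions that met neither the rule nor a list include CHAC1, HMOX1, HSBP1L1 and RCN1, chosen after their values were seen. They are not a full set. P4HA1 (log2 difference 1.30) and NCLN (-0.97), for example, were also listed and went in opposite directions. CHAC1, which breaks down glutathione and is induced by the unfolded protein response in mammals, was listed at 4.18 FPKM in the immature and at 104 FPKM in the mature group (log2 difference 4.34; chromosome 5, 23730411 to 23732558). HMOX1, the stress-inducible heme oxygenase of the ER membrane, was listed at 100.8 and 496 FPKM (2.29). HSBP1L1, a relative of the protein that binds heat shock factor, was listed at 3.46 and 14.4 FPKM (1.79). RCN1, a calcium-binding protein of the ER lumen, was listed at 20.6 and 6.45 FPKM (-1.54).

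The gene ontology terms of the table give groups that overlap the 24 genes in part, and no common direction. For 116 mRNAs the term entry was not available, so the counts may be incomplete. Of 12 mRNAs with the term protein folding, 3 were higher and 9 lower in mature livers, with a median difference of -1.01, and 8 of the 12 are among the 24 genes above. Of 8 mRNAs with the term unfolded protein binding, 4 were higher and 4 lower, with a median difference of 0.05, and 6 are among the 24. Of 3 with the term response to heat, 2 were higher and 1 lower, with a median difference of 1.75. Of 45 mRNAs with the term endoplasmic reticulum, 25 were higher and 20 lower, with a median difference of 0.68, near the 0.64 of all mRNAs, of which 54.9% were higher, and 3 of the 45 are among the 24.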
